A study of Mus musculus with 24 samples.

Results

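The genes described here encode the subunits of potassium channels. All genes whose symbol is Kcn followed by family letters and a number were taken. This gave 92 of the 21370 genes with a symbol on a 1-colour Agilent mouse array. The rule itself used no measured level, though earlier results of these data were known when it was chosen. Transcripts of 6 female mice were measured in 4 tissues, liver, brain, heart and skeletal muscle, with 1 array for each mouse and tissue and 24 arrays in all. In 3 mice, called A, B and C, Terf2ip, the gene for RAP1, had been edited with CRISPR/Cas9 (knockin, KI), with silent changes beside a mutation that puts arginine in place of an isoleucine needed to bind the telomere protein TRF2. Mice D, E and F were wild type (WT). Mice C and F were aged 14 months, and all others 15 months. The knockin line had been crossed back to C57BL6 mice (the substrain C57BL/6N in the study's methods), the allele is not limited to 1 tissue, and no mouse received a treatment according to the labels.

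Potassium channels let potassium ions leave the cell along their gradient, which sets the resting potential and ends the action potential. Each channel is built from pore-forming alpha subunits, and in many channels modifier or auxiliary subunits join them and change gating or transport to the membrane. Neurons use many channel types to shape firing, heart muscle depends on a defined set for repolarisation, skeletal muscle for its resting potential and liver and epithelia for the driving force of transport.

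Levels are on the log2 scale, with the processed signal of a probe set against the 75th percentile of its array, so that a difference of 1 in log2 is a doubling. Levels of 1 gene are compared between arrays, and never levels of different genes, since each gene has its own probe. A gene is called measured in a group where all 3 arrays had its probe well above background. Differences come from limma with Benjamini-Hochberg adjustment over all genes tested and a threshold of 0.05 for the adjusted p. Where values of 3 WT arrays are listed, they follow the order of mice D, E and F, and values of KI arrays the order A, B and C. Since RNA came from whole tissue pieces, fewer cells of a type and less RNA per cell cannot be told apart.

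Each tissue carried the markers of its main cells. The mean level of 4 hepatocyte markers was 8.28 to 9.08 in liver, that of 4 neuron markers 5.76 to 6.15 in brain, and that of 4 skeletal muscle fibre markers 9.45 to 10.1 in muscle. Arrays of 5 samples stood apart from the others of their tissue. The brain array of KI mouse C had hepatocyte markers at 4.69 against at most -0.67 in the other brains, and cerebellum markers at -0.60 against at least 2.01. The liver array of KI mouse C had skeletal muscle markers at 1.71 against at most -4.81, and the muscle array of KI mouse B mammary markers at -0.57 against at most -4.72. The hearts of KI mouse B and WT mouse E had the atrial light chain Myl7 at 7.44 and 4.27, against at most 0.18 in the other hearts. The genotype differences named in those tissues are also given without them.

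Potassium channel genes were most often measured in brain. Of the 92 genes, 81 were measured in WT brain, 48 in WT heart, 39 in WT muscle and 31 in WT liver. These are 88%, 52.2%, 42.4% and 33.7% of the family, beside 74.2%, 68.1%, 62.3% and 64.1% of all genes with a symbol. The family therefore stood above the share of all genes in brain and below it in the other tissues. In KI mice 80 were measured in brain, 50 in heart and 30 in liver.

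Detection in a single tissue was common. There were 25 genes (27.2%) measured in WT brain alone, beside 6.7% of all genes. Liver alone held 2 genes, Kcnk5 and Kcnn4, heart alone held Kcnv2, and no gene was measured in muscle alone. The other groups were 22 genes measured in all 4 tissues (23.9%, beside 55.7% of all genes), 12 in brain and heart, 11 in brain, heart and muscle, 5 in brain and muscle, 5 in brain and liver, and 1 each in 2 further combinations. For 7 genes no WT tissue was measured, among them Kcne1, Kcng3, Kcnj1 and Kcnk18.

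The 25 brain genes came from nearly every structural family. They were the voltage-gated alpha subunits Kcna3, Kcna10, Kcnb2 and Kcnc2, the modifiers Kcng1, Kcns1, Kcns2 and Kcnv1, and 7 of the Kcnq and Kcnh group, among them Kcnq3, Kcnh1, Kcnh5 and Kcnh6. The inward rectifiers Kcnj6 and Kcnj9, the tandem pore domain (K2P) subunits Kcnk2, Kcnk7, Kcnk9 and Kcnk12, and the auxiliary subunits Kcnab2, Kcne2, Kcnip4 and Kcnmb2 completed the list. For 14 of the 25 no array of the other WT tissues was well above background. For the other 11, some arrays of another tissue were, as for Kcna10, which was well above background in 2 of 3 WT hearts at -2.57 and -4.10 and stood at -3.26, -5.09 and -5.18 in WT brain. The lowest level well above background was -6.94 to -5.56 on WT brain arrays and -4.94 to -4.21 on WT muscle arrays. A level measured in brain could thus go unmeasured in muscle. Kcnk7, one of the 14, had a mean of -5.31 in WT brain and -4.57 in WT muscle. Brain lay more than 1-fold above the bound for muscle in 19 of the 23 genes with no WT muscle array well above background. The same held for 16 of 18 in liver and 14 of 16 in heart. These counts follow largely from the choice of genes measured in brain alone. They were not made for all genes and are no support for a brain pattern.

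**Figure D1:**
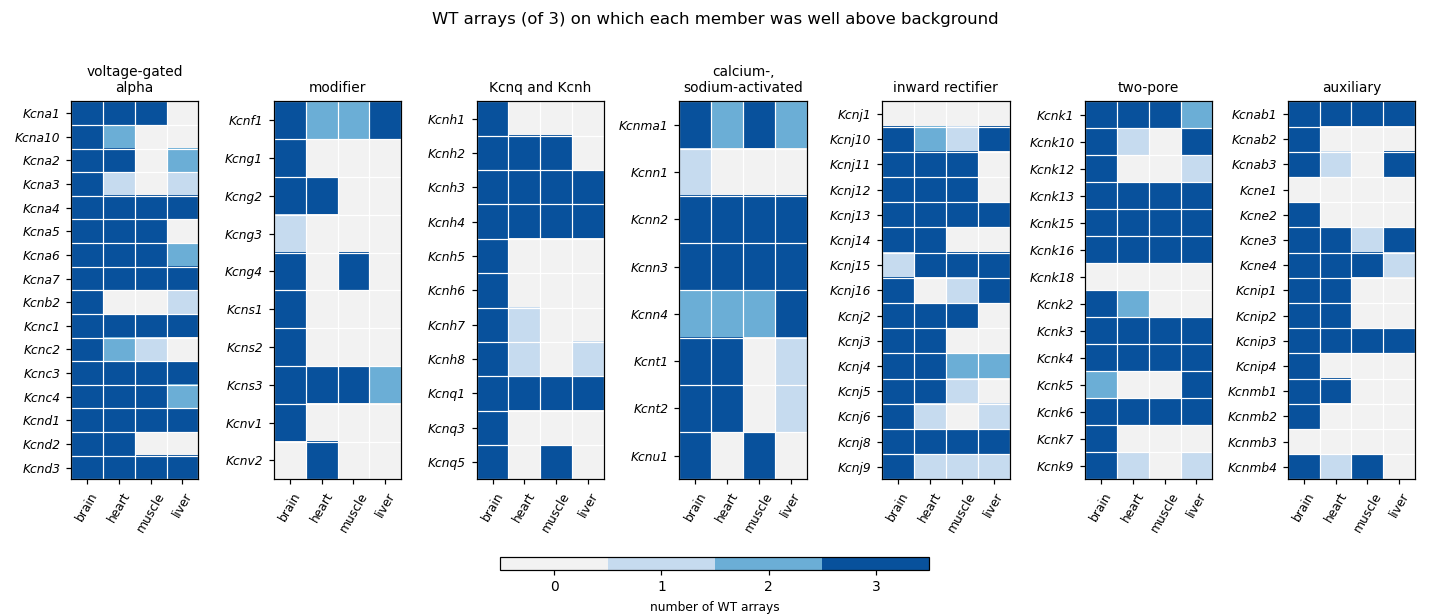
Number of WT arrays, of 3 in each tissue, on which each of 89 of the 92 potassium channel genes was well above background. Each panel is 1 structural family, rows are genes and columns are tissues. The brain column is darkest for 79 of the genes shown, the liver column for 30.

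Promoter sequence was read for these genes to show what lies before the starts of genes with different tissue patterns. RefSeq windows of the build GRCm38.p6 were at hand for 67 of the 92 genes, 92 windows in all. The GC box, letters GGGCGG on either strand, is a site of the common factor SP1 and was present in 47.8% of these windows, against 35.7% of the windows of all genes. It was in 14 of the 29 windows of genes measured in brain alone (48.3%) and in 44.4% of those of genes measured in all 4 tissues. The TATA box, letters TATAAA on either strand, was in 5.43% of the windows of the family and in 13.6% of all. The median number of CpG dinucleotides in a window was 9 in the family and 7 over all genes.

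REST is a repressor that keeps neuronal genes off outside neurons, and 1 end of its site, TTCAGCACC on either strand, was in 1 window of the family (1.09%, against 0.371% of all windows). This was the window of Kcnh6, one of the genes measured in brain alone. Kcnh6 was near background, at -5.21, -5.31 and -6.06 in WT brain. Those levels lie below the lowest level well above background on the WT muscle arrays (-4.94 to -4.21). In KI brain 2 of 3 arrays were well above background, and its other probe was so on 0 brain arrays. Below are the 250 bases before the start of Kcnj10 (highest in brain, chr1:172340960-172341209, plus strand), Kcnh6 (brain alone, chr11:106007898-106008147, plus strand), Kcnj5 (highest in heart, chr9:32344345-32344594, minus strand), Kcna7 (highest in muscle, chr7:45405710-45405959, plus strand) and Kcnk5 (liver alone, chr14:20181783-20182032, minus strand), 5′ to 3′ in the direction of transcription. Capitals mark GC boxes and, in Kcnh6, also that end of the REST site, which is the first run of capitals.
Kcnj10: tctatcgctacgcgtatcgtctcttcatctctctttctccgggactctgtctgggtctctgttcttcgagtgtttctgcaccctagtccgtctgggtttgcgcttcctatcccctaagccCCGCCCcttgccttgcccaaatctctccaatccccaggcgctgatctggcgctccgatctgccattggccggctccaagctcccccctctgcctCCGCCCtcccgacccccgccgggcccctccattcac
Kcnh6: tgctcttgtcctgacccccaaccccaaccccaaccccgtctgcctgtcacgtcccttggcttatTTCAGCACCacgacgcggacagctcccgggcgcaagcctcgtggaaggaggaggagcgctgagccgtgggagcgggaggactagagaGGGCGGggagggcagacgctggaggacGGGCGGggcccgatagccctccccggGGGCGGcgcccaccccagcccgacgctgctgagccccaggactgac
Kcnj5: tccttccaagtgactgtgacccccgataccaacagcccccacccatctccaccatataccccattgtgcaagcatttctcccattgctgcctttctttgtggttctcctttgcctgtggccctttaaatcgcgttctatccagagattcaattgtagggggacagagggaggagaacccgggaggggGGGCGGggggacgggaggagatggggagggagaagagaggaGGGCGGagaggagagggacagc
Kcna7: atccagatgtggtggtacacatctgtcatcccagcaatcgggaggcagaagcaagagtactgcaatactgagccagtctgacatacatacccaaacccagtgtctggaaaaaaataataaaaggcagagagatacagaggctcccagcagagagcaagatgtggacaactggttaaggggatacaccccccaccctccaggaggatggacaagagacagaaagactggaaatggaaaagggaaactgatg
Kcnk5: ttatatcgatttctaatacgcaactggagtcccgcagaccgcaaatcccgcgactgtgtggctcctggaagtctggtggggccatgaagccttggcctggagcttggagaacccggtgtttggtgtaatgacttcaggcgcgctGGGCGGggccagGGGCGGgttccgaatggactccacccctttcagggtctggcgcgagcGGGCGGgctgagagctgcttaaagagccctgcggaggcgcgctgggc
Within the 250 bases shown, Kcna7 held no GC box and 1 CpG dinucleotide, Kcnj10 and Kcnj5 held 2 GC boxes, and Kcnh6 and Kcnk5 held 3. The windows behind the shares and medians above were 300 bases long. On that length Kcna7 had 4 CpG dinucleotides and Kcnj10 had 3 GC boxes. A match of letters is a description of the sequence and not of binding. The 5 genes differ in tissue pattern as well as in these counts, and with 1 window for each no relation was tested.

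Genes measured in both tissues of a pair could be tested, and the direction favoured brain. Of 28 genes tested between WT brain and WT liver, 15 were higher in brain and 9 in liver (53.6% and 32.1%). Over all genes the split ran the other way, with 29.7% higher in brain and 48.2% in liver. Against heart, 23 of 46 genes were higher in brain and 15 in heart, beside 28.5% and 44.9% of all genes. Against muscle, 19 of 38 were higher in brain and 11 in muscle, beside 27.8% and 50.2%. The median brain minus liver difference was 1.92 in the family and -0.41 over all genes, and the corresponding medians were 0.56 and -0.30 against heart and 0.63 and -0.48 against muscle.

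Between heart and liver the family leaned to heart, and in the 2 other pairs it was closer to the rest of the genes. Of 24 genes tested between heart and liver, 12 were higher in heart and 5 in liver (50% and 20.8%), beside 36.4% and 35.4% of all genes. The median heart minus liver difference was 0.67 in the family and 0.01 over all genes. Of 34 tested between heart and muscle, 9 were higher in heart and 8 in muscle, beside 26.4% and 30.9%. Of 23 tested between muscle and liver, 8 were higher in muscle and 6 in liver, beside 41.4% and 34.9%. Without WT mouse E the muscle count was 13. Quantile normalization moved the median of all genes from -0.41 to -0.14 between brain and liver, from -0.30 to -0.13 between brain and heart, from -0.48 to -0.21 between brain and muscle and from -0.07 to 0.04 between heart and muscle, and reversed no call of a potassium channel gene.

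**Figure D2:**
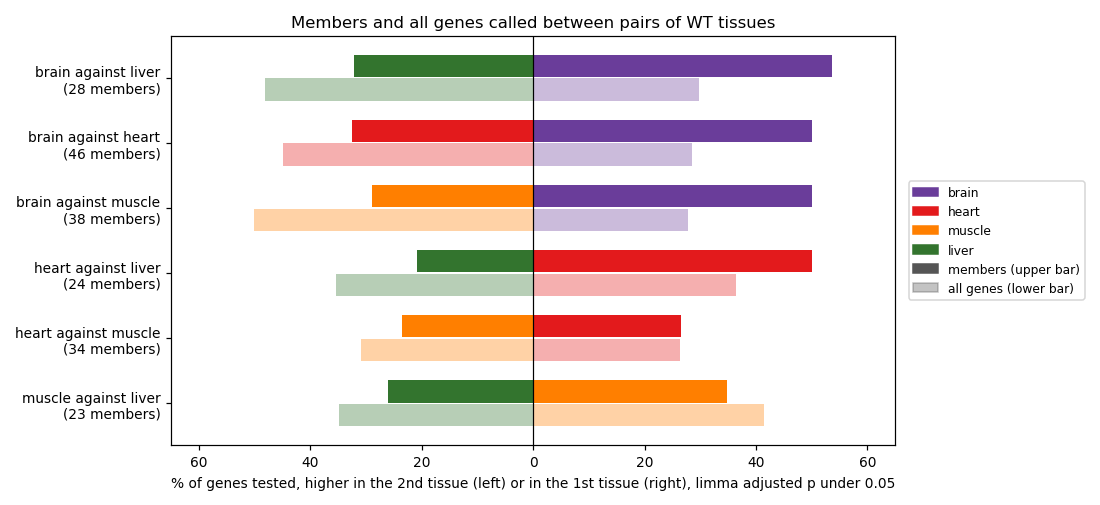
Share of genes tested that were called between 2 WT tissues, in percent, for the potassium channel genes (upper bar of each pair) and all genes (lower bar), with those higher in the first tissue to the right and in the second to the left. In the 3 pairs with brain, 50 to 53.6% of the family and 27.8 to 29.7% of all genes were higher in brain.

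The same direction was seen in the KI mice, which share no animal with the WT mice. All 140 differences called between WT tissues had the same sign between the means of the KI tissues. Of those that could be tested in KI, 19 of 22 were called between brain and liver, 34 of 37 between brain and heart, 25 of 27 between brain and muscle, 15 of 17 between heart and liver, 14 of 16 between heart and muscle and 13 of 13 between muscle and liver. The repeat in KI was counted for the family only, with no share over all genes, so nothing particular to the family is read from it.

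In 57 genes at least 2 WT tissues were measured, and in 40 of them the highest tissue was above every other measured tissue with each pair called. Brain was the highest tissue of 32 genes (25 with all pairs called), heart of 12 (8), muscle of 9 (3) and liver of 4 (4). These counts were made for the family only, with no share over all genes beside them, so they describe the family and are not compared. The steps from brain to the next tissue were up to 7.67 in log2, those from heart up to 6.22, those from muscle up to 3.09 and those from liver up to 2.51.

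**Figure D3:**
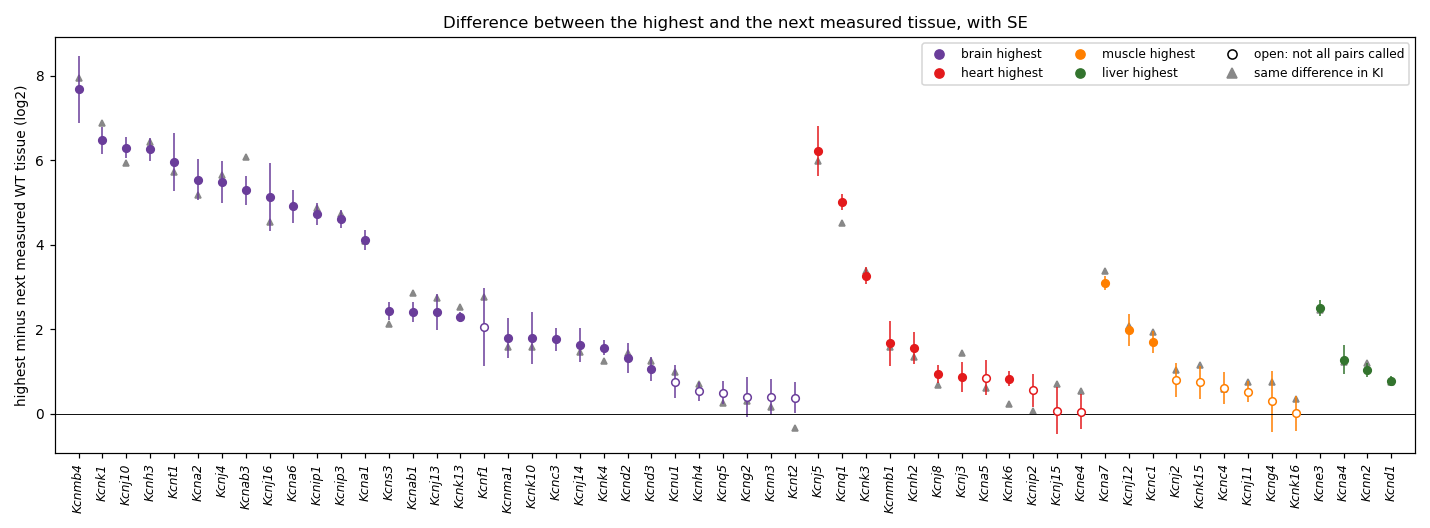
Difference in log2 between the highest and the next measured WT tissue with its standard error, for 56 of the 57 potassium channel genes measured in at least 2 WT tissues. Colour gives the highest tissue, filled points are genes with all pairs called, and triangles give the same difference in the KI mice. The largest steps are those of Kcnmb4 in brain (7.67) and Kcnj5 in heart (6.22).

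The voltage-gated alpha subunits of the Kcna, Kcnb, Kcnc and Kcnd families form the delayed rectifier and transient outward channels. All 17 were measured in brain, 13 in heart, 11 in muscle and 7 in liver. Between brain and heart, 9 of 13 were higher in brain and 3 in heart (all genes 28.5% and 44.9%). Between heart and muscle, 1 of 11 was higher in heart and 5 in muscle (26.4% and 30.9%).

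Kcna1 and Kcna2 form low-threshold channels of axons. Kcna1 stood at 3.94, 3.98 and 4.27 in WT brain, at -0.19, -0.02 and 0.10 in muscle and at -0.99, -0.74 and -0.76 in heart. The groups did not overlap, with brain 4.10 above muscle (SE 0.24, adjusted p = 7.09e-08) and muscle 0.79 above heart (SE 0.24, adjusted p = 0.0151). No liver array was well above background, and liver lay at least 613-fold below brain. Kcna2 stood at 1.56, 2.02 and 1.32 in brain and at -3.44, -3.68 and -4.58 in heart, a difference of 5.53 (SE 0.48, adjusted p = 2.09e-06), and its brain level was at least 66.8-fold above muscle, where no array was well above background. In liver 2 of 3 arrays of Kcna2 were well above background, so neither a test nor a bound is given.

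Kcnc1 encodes a fast delayed rectifier of quickly firing neurons, and its main probe was highest in muscle. It stood at 3.45, 4.18 and 4.11 in WT muscle, at 2.25, 2.13 and 2.29 in brain, at -1.97, -1.84 and -1.80 in heart and at -3.79, -3.05 and -2.76 in liver. All 3 steps of this order were called, the first at 1.69 (SE 0.26, adjusted p = 0.000137). The direction of that step depended on the probe, since both other probes of Kcnc1 read higher in brain than in muscle, by 0.93 and 2.07. Kcnc4, a further subunit of this family, stood at 2.40, 3.32 and 2.56 in muscle and at 1.99, 2.50 and 1.97 in brain, and these ranges overlapped (difference 0.61, adjusted p = 0.159). Heart Kcnc4 was 5.86 below brain (SE 0.38, adjusted p = 1.95e-07).

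Kcna7, a shaker-type subunit known from skeletal muscle and heart, had the largest step of any gene that was highest in muscle. WT muscle stood at 4.65, 4.87 and 5.01, heart at 1.74, 1.77 and 1.74, liver at -1.49, -1.37 and -0.90 and brain at -2.09, -2.25 and -2.10. No tissue overlapped with another, and muscle exceeded heart by 3.09 (SE 0.16, 8.53-fold, adjusted p = 2.26e-07). The other probe of Kcna7 gave the same order at the top and a smaller step, with muscle 0.67 above heart.

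Kcnd2 carries the fast transient outward current of the ventricle and of dendrites. It stood at 3.55, 3.43 and 3.75 in WT brain and at 2.20, 2.35 and 2.26 in heart, while no array of muscle or liver was well above background. Brain was 1.31 above heart (SE 0.36, adjusted p = 0.00685), a call that was lost without mouse D (1.29, adjusted p = 0.0513) and without mouse F (1.22, adjusted p = 0.0714). The heart level was at least 106-fold above muscle and at least 176-fold above liver.

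Kcna5 carries a delayed rectifier current of the heart. It stood at 0.41, 0.77 and 0.98 in heart and at -0.67, 0.08 and 0.19 in muscle, which did not pass the test (difference 0.86, adjusted p = 0.101), and brain was 1.99 below muscle (SE 0.41, adjusted p = 0.00116). No liver array was well above background on this probe, while the other probe of Kcna5 was measured in liver and read 2.07 higher in heart than in liver.

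Kcna4 and Kcnd1 had their highest level in liver. Kcna4, an A-type subunit described in heart and brain, stood at 3.93, 4.63 and 3.503 in WT liver, 2.53, 2.98 and 2.71 in muscle, 1.38, 2.05 and 1.05 in heart and 0.89, 0.11 and 0.80 in brain. Liver exceeded muscle by 1.28 (SE 0.34, adjusted p = 0.00533), and without mouse D by 1.22 with an adjusted p of 0.0648. The KI livers of mice A, B and C stood at 2.87, 4.67 and 5.09, so that 1 of the 3 lay below the KI muscles (2.88 to 3.14). Kcnd1 stood at 0.92, 1.14 and 0.96 in liver and between -0.10 and 0.27 on all 9 other WT arrays, and liver exceeded brain by 0.78 (SE 0.12, adjusted p = 0.000108).

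Kcna3, a channel of T cells and other immune cells as well as neurons, stood at -2.32, -1.41 and -2.60 in brain, where it alone was measured, and was at least 5.11-fold above muscle.

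The modifier subunits of the Kcnf, Kcng, Kcns and Kcnv families do not form channels alone and join Kcnb subunits. Of 10 such genes, 8 were measured in brain, 3 in heart, 2 in muscle and 1 in liver, and none in all 4 tissues. Kcng1 stood at 0.32, -1.89 and -0.36 in WT brain, while its other probe was well above background on 0 brain arrays. On the main probe no WT array of another tissue was well above background, with brain at least 14.2-fold above muscle and at least 23.5-fold above liver. Kcnv2, known for its role in photoreceptors, had the opposite pattern. It stood at 0.76, 0.61 and 1.27 in WT heart and at 0.28, 0.11 and 1.37 in KI heart, while no array of another tissue was well above background, and WT heart was at least 144-fold above brain, 67.5-fold above liver and 40.8-fold above muscle. Kcns3 was the modifier with most pairs tested and was highest in brain, 2.43 above muscle and 3.95 above heart (adjusted p = 2.04e-06 and 6.07e-08).

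The Kcnq and Kcnh families hold the M-type and slow delayed rectifier channels and the ether-a-go-go channels. Of 13 genes, 12 were measured in brain, 4 in heart, 5 in muscle and 3 in liver.

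Kcnq1, the pore of the slow cardiac delayed rectifier and an epithelial channel, was highest in heart. It stood at 3.59, 3.63 and 3.68 in WT heart, at -1.56, -1.12 and -1.46 in liver, at -2.14, -1.54 and -1.36 in muscle and at -3.53, -3.56 and -3.53 in brain. Heart lay far above the others, 5.01 over liver (SE 0.19, 32.3-fold, adjusted p = 4.19e-09), and its other probe gave 5.12. Liver and muscle overlapped (difference 0.30, adjusted p = 0.175), and muscle was 1.86 above brain (adjusted p = 6.76e-06). The brain of KI mouse C read -2.07, above the other brains (-3.66 to -3.41). Kcne1, the auxiliary subunit that joins Kcnq1 in that channel, was not well above background on any of the 24 arrays.

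Kcnh2 encodes the rapid delayed rectifier of the heart. It stood at 0.89, 1.22 and 1.25 in WT heart, at -0.43, -0.50 and -0.36 in brain and at -2.45, -2.94 and -3.49 in muscle. Heart exceeded brain by 1.55 (SE 0.38, adjusted p = 0.00395) and brain exceeded muscle by 2.52 (adjusted p = 0.000128), while liver, with no array well above background, lay at least 79.6-fold below heart. These 3 tissues did not overlap.

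Kcnq3 is a subunit of the neuronal M-channel, and Kcnh1 and Kcnh3 are ether-a-go-go channels of brain. Kcnq3 stood at -1.44, -1.80 and -1.69 in brain, at least 6.57-fold above muscle. Kcnh1 stood at -1.46, -0.36 and -1.20 in brain, at least 11.02-fold above muscle. Kcnh3 was measured everywhere, at 4.03, 3.57 and 4.43 in brain and between -2.84 and -1.71 on all 9 other WT arrays, where the tissues overlapped, and brain exceeded liver by 6.25 (SE 0.28, 76.3-fold, adjusted p = 7.40e-09).

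Calcium-activated (Kcnma, Kcnn) and sodium-activated (Kcnt) channels link potassium flux to ion entry during activity. Of 8 genes in this group with Kcnu1, 6 were measured in brain, 4 in heart, 4 in muscle and 3 in liver. Kcnt1 stood at 2.59, 1.90 and 1.85 in WT brain and at -4.05, -3.77 and -3.71 in heart, a difference of 5.96 (SE 0.69, 62.2-fold, adjusted p = 1.82e-05). Brain and heart did not come near each other, and brain was at least 94.5-fold above muscle. Kcnma1, the large-conductance channel of smooth muscle and neurons, stood at 4.16, 4.08 and 4.72 in brain and at 2.37, 2.61 and 2.60 in muscle, a difference of 1.79 (SE 0.48, adjusted p = 0.0055) that did not pass without mouse D (1.79, adjusted p = 0.0615). Another of its 4 probes read 2.61 higher in muscle than in brain.

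Kcnn2, a small-conductance channel, was highest in liver. It stood at 3.29, 3.24 and 3.16 in WT liver and at 2.08, 2.18 and 2.36 in WT brain. Heart followed at 1.73, 1.58 and 2.06, overlapping with neither, and muscle was lowest at -0.25, -0.70 and -0.61. All steps were called, with liver 1.03 above brain (SE 0.16, adjusted p = 0.000168), brain 0.42 above heart (adjusted p = 0.0395) and heart 2.31 above muscle (adjusted p = 1.70e-06). Kcnn3, the small-conductance channel known from denervated muscle, lay between -3.73 and -1.87 on the 12 WT arrays, and no step between neighbouring tissues was called (adjusted p of 0.412 to 0.668). Kcnn4, the intermediate-conductance channel of blood cells and epithelia, stood at -2.998, -3.44 and -3.68 in liver, where it alone was measured, and was well above background on 2 of 3 WT arrays in each other tissue.

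Inward rectifiers (Kcnj) pass current best near the resting potential, and among them are the strong rectifiers of muscle, the G protein-gated channels and the ATP-sensitive channels. Of 15 genes, 13 were measured in brain, 10 in heart, 6 in muscle and 5 in liver. Between brain and heart, 3 of 9 were higher in brain and 5 in heart (all genes 28.5% and 44.9%), and between brain and muscle 1 of 5 was higher in brain and 4 in muscle (27.8% and 50.2%). With so few genes tested, nothing is read from these shares.

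Kcnj10 and Kcnj16 form the potassium-buffering channels of glia. Kcnj10 stood at 4.62, 4.73 and 4.92 in WT brain and at -1.33, -1.58 and -1.69 in liver, with brain 6.29 above liver (SE 0.25, 78.3-fold, adjusted p = 3.02e-09). It was not measured in WT heart or muscle, where 2 and 1 of 3 arrays were well above background. Kcnj16 was measured in the same tissues, at 2.10, 1.91 and 2.05 in brain and -2.66, -3.43 and -3.25 in liver (difference 5.13, SE 0.80, adjusted p = 0.000155). Both genes therefore had brain as their highest and liver as their next tissue.

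Kcnj3 and Kcnj5 form the acetylcholine-gated channel of the atrium, and Kcnj6 is the G protein-gated subunit of neurons. Kcnj5 stood at 3.91, 3.94 and 4.13 in WT heart and at -2.02, -2.55 and -2.11 in brain, a difference of 6.22 (SE 0.59, 74.4-fold, adjusted p = 3.94e-06), and heart was at least 583-fold above liver. Kcnj3 was much closer between the tissues, at -0.44, -0.18 and -0.39 in heart and -1.32, -1.46 and -0.81 in brain, and its difference of 0.86 (adjusted p = 0.0467) was lost without any 1 of the 3 mice (0.65 to 1.08, adjusted p of 0.075 to 0.118), with the mouse as a block (adjusted p = 0.0502) and without the heart of mouse E alone (0.78, adjusted p = 0.118). Its other probe read 0.17 higher in brain. Of the 2 hearts with high Myl7, KI mouse B had Kcnj3 at 1.00 and Kcnj5 at 4.56, above the other hearts, and WT mouse E had -0.18 and 3.94, and the part of atrial tissue in these values was not tested. Kcnj6 stood at -2.88, -3.07 and -2.91 in brain, where it alone was measured.

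Kcnj8 and Kcnj11 are the pores of ATP-sensitive channels of vessels and of striated muscle. Kcnj11 stood at 1.42, 1.89 and 2.0003 in WT muscle, 1.27, 1.34 and 1.12 in heart and -1.03, -0.46 and -0.68 in brain, with no array of liver well above background. Muscle and heart did not overlap, yet their difference of 0.52 did not pass the test (adjusted p = 0.0877), while it did without mouse D (0.71, adjusted p = 0.0246), and heart exceeded brain by 1.97 (adjusted p = 2.97e-05). Kcnj8 was measured in all tissues, at 1.28, 1.03 and 1.69 in heart, 0.63, 0.01 and 0.52 in muscle, -2.44, -2.58 and -2.25 in liver and -3.34, -3.22 and -3.005 in brain, and each step was called, the first at 0.94 (SE 0.21, adjusted p = 0.00338). In the KI mice the step from heart to muscle was 0.68 and was not called. Pericyte markers, 4 in number, had a mean level of 2.98 to 3.19 in WT heart, 2.11 to 2.62 in muscle, 0.34 to 0.69 in brain and -1.07 to -0.79 in liver, and their part in the Kcnj8 levels was not tested.

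Kcnj2 and Kcnj12 carry the strong inward rectifier current of heart and skeletal muscle. Kcnj12 stood at 3.33, 4.10 and 3.43 in WT muscle, 1.54, 1.59 and 1.77 in heart and 1.11, 1.63 and 1.41 in brain. Muscle was 1.99 above heart (SE 0.38, adjusted p = 0.00129) and at least 450-fold above liver, and heart and brain overlapped (difference 0.25, adjusted p = 0.568). Kcnj2 stood at -0.19, -1.13 and -0.66 in muscle and -1.32, -1.39 and -1.65 in heart, a difference of 0.79 that did not pass (adjusted p = 0.115) and that passed without mouse E (1.06, adjusted p = 0.0344), and heart was 3.32 above brain (adjusted p = 2.60e-05).

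Kcnj15, described in kidney and other epithelia, was measured in heart, muscle and liver and not in WT brain. WT heart stood at -3.09, -2.16 and -2.60, muscle at -1.31, -2.97 and -3.80 and liver at -2.96, -2.9995 and -2.93, and the tissues overlapped with no step called. The brain of KI mouse C read -1.94, above the other brains (-6.62 to -4.56).

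The K2P subunits (Kcnk) carry background currents that hold the resting potential. Of 14 genes, 12 were measured in brain, 8 in liver, 7 in heart and 7 in muscle, and 6 in all 4 tissues.

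Kcnk1 and Kcnk3 had the largest steps in this family. Kcnk1, known from astrocytes and other cells, stood at 2.93, 3.51 and 3.08 in WT brain, -3.04, -3.82 and -3.02 in muscle and -3.87, -2.94 and -3.28 in heart. Brain exceeded muscle by 6.46 (SE 0.31, 88.3-fold, adjusted p = 2.24e-08), and muscle and heart overlapped. Kcnk3, an acid-sensitive channel, stood at 4.23, 4.38 and 4.22 in WT heart, 0.66, 1.47 and 0.90 in brain, -2.34, -2.76 and -2.77 in muscle and -3.71, -3.81 and -3.60 in liver. No pair of tissues overlapped, with heart 3.27 above brain (SE 0.20, 9.61-fold, adjusted p = 1.50e-07) and brain 3.64 above muscle (adjusted p = 5.51e-08).

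Kcnk5, an acid-sensitive epithelial channel, was measured in WT liver alone. Liver stood at 0.69, 1.62 and 1.24, at least 87.3-fold above heart and at least 50.2-fold above muscle, where no array was well above background. In WT brain 2 of 3 arrays were well above background, at -4.91 and -5.62. Kcnk12, whose product is silent when expressed alone in most cells, stood at -0.03, 0.64 and 0.20 in WT brain, at least 42.5-fold above heart and 22.99-fold above muscle.

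Kcnk6 and Kcnk13 were measured in all 4 tissues and had smaller steps. Kcnk6 stood at 0.33 ± 0.23 in WT heart, -0.50 ± 0.14 in liver, -0.85 ± 0.21 in muscle and -0.88 ± 0.25 in brain (SD, n = 3 each). Heart was 0.83 above liver (SE 0.18, adjusted p = 0.0016), a step that was 0.23 and not called in the KI mice, and the other 3 tissues differed from their neighbours by no called amount. Kcnk13, the channel of microglia, stood at -0.08, 0.09 and 0.07 in brain and between -2.40 and -2.16 on the 9 other WT arrays, which overlapped, with brain 2.29 above heart (SE 0.11, adjusted p = 2.82e-08).

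Auxiliary subunits bind to the alpha subunits and set their gating or surface level. Of 15 genes, 13 were measured in brain, 7 in heart, 4 in muscle and 4 in liver. Kcnmb4, the neuronal beta subunit of the large-conductance channel, had the largest step of all. It stood at 4.19, 3.81 and 4.604 in WT brain and at -3.50, -3.73 and -3.19 in muscle, a difference of 7.67 (SE 0.79, 204-fold, adjusted p = 6.23e-06), and was at least 637-fold below brain in liver. Kcnmb1, the beta subunit of smooth muscle, stood at -3.27, -2.55 and -3.49 in heart and -5.05, -4.41 and -4.85 in brain, a difference of 1.67 (adjusted p = 0.0159) that was not called without mouse E (1.57, adjusted p = 0.0887), without mouse F (1.82, adjusted p = 0.0636) or without the heart of mouse E alone (1.39, adjusted p = 0.0614).

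Kcnip2 and Kcnip4 are calcium-binding partners of the Kcnd channels, and Kcnab2 is a cytoplasmic beta subunit of Kcna channels. Kcnip2 stood at 0.30, 0.09 and -0.10 in WT heart and -0.52, -0.64 and -0.21 in brain, which did not overlap but did not pass the test (difference 0.55, adjusted p = 0.216), and heart was at least 22.8-fold above muscle and 39.1-fold above liver. Kcnip4 stood at 3.63, 3.49 and 3.71 in WT brain, at least 230-fold above muscle and 455-fold above heart. Kcnab2 stood at -3.29, -3.15 and -3.16 in brain, at least 2.41-fold above muscle and 4.18-fold above heart, and no array of the other tissues was well above background.

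Kcne3, a partner of Kcnq1 in epithelia and of Kcnc4 in muscle, was highest in liver. It stood at -1.15, -1.37 and -1.56 in WT liver, -3.98, -3.89 and -3.75 in heart and -5.19, -5.65 and -5.42 in brain. The tissues did not overlap, with liver 2.51 above heart (SE 0.19, 5.70-fold, adjusted p = 6.73e-07) and heart 1.55 above brain (adjusted p = 2.85e-05). In muscle 1 of 3 WT arrays was well above background.

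**Figure D4:**
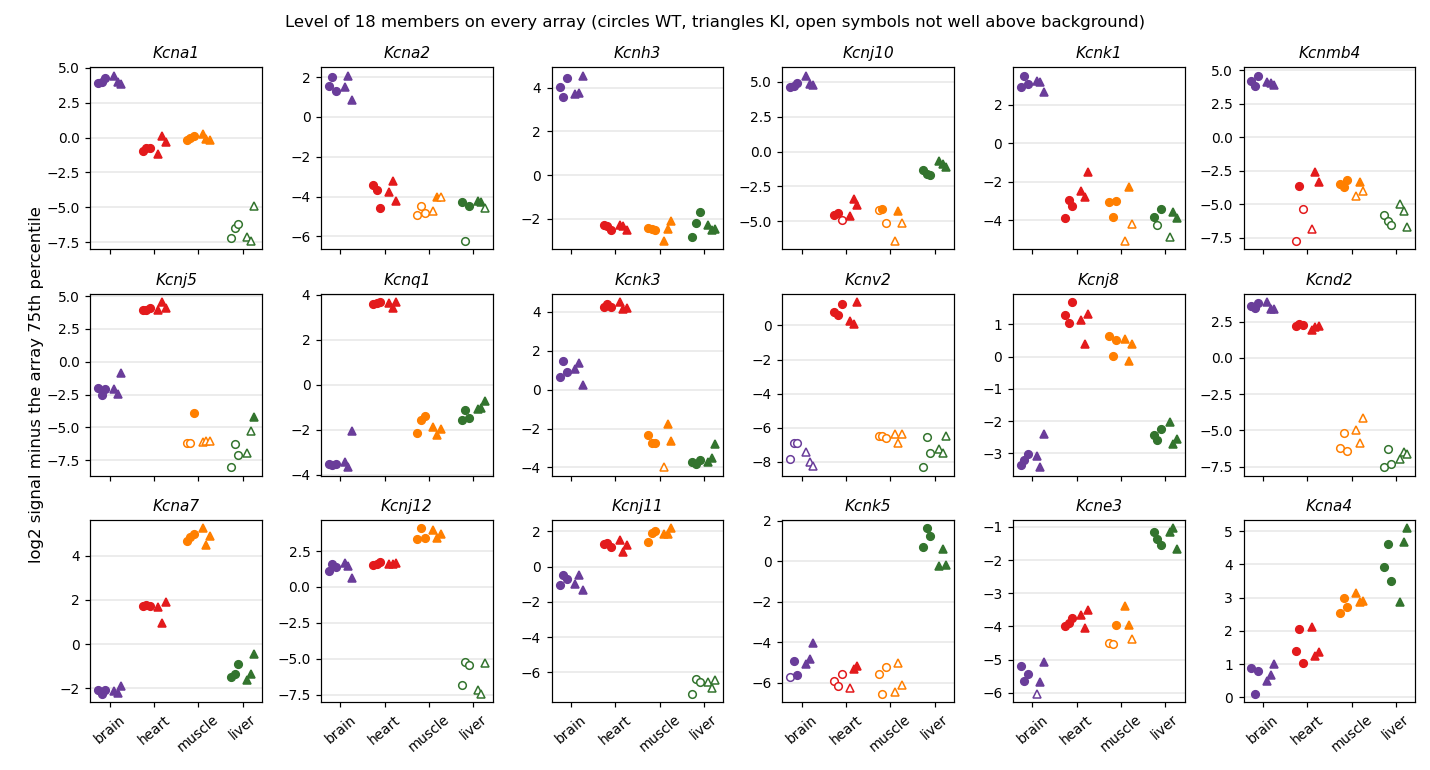
Level on each of the 24 arrays, as log2 signal minus the 75th percentile of the array, of 18 potassium channel genes. Circles are WT mice, triangles are KI mice, open symbols are arrays not well above background, and each panel has its own axis. Kcnq1 lies between 3.42 and 3.68 in all hearts and at most at -0.73 on every other array.

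Other probes of the same gene did not always read alike. Of the 92 genes 33 had several probes, and of 26 called differences between tissues that another probe also measured, 22 had the same sign and 4 the opposite. The opposite ones belonged to Kcnc1, Kcnj3 and Kcnma1. Among differences that were not called, Kcng2, a modifier, read 0.40 higher in brain than in heart on the main probe and 4.95 lower in brain on the other (brain minus heart -4.95). Counting a gene as measured where any of its probes was, 49 genes were measured in heart and 32 in liver, Kcnma1 and Kcna5 being added, and the numbers in brain and muscle and of genes measured in 1 tissue alone stayed the same.

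Proteins that join potassium channels without carrying such a symbol were examined as a list of 16 genes. Abcc9, the regulatory subunit of ATP-sensitive channels in muscle and vessels, stood at 4.97, 4.88 and 5.16 in WT heart, at 4.85, 5.02 and 4.63 in muscle and at -1.23, -1.19 and -1.31 in brain. Heart and muscle overlapped (difference 0.17, adjusted p = 0.348), and heart was 3.00 above liver and 6.25 above brain (adjusted p = 2.76e-08 and 5.81e-10). Abcc8, the other such subunit, was highest in heart, 1.86 above brain and 2.74 above muscle (adjusted p = 4.97e-05 and 8.81e-06). Dpp6, a partner of Kcnd2, was 7.01 higher in brain than in heart (adjusted p = 7.01e-09). Lrrc38, a partner of Kcnma1, was highest in muscle, 3.51 above brain (adjusted p = 3.29e-07).

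No potassium channel gene passed the adjusted threshold between KI and WT mice in any tissue. In limma 83 of the 92 genes were tested in brain, 50 in heart, 40 in muscle and 32 in liver, and 0 passed in each. Over all genes the share was 0% too, of 16073 genes in brain, 14931 in heart, 13517 in muscle and 14092 in liver. The smallest adjusted p was 0.358 in liver, 0.971 in heart and 1.00 in muscle and brain. The median KI minus WT difference was -0.04 in brain (all genes -0.03), -0.02 in heart (-0.05), -0.05 in muscle (0.02) and 0.09 in liver (0.04).

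At an unadjusted p under 0.05, liver had the most genes. There were 5 higher and 1 lower in KI liver (15.6% and 3.12% of those tested), beside 7.49% and 4.25% of all genes. In brain 1 was higher and 0 lower (all genes 0.398% and 0.392%), in heart 2 were higher and 1 lower (0.904% and 0.743%), and in muscle 0 were higher or lower (0.407% and 0.444%). These counts moved with single arrays. Without the liver of WT mouse D, 2 were higher and 4 lower in liver, so that the direction turned (all genes 6.32% and 3.56%). Without the heart of KI mouse A, 10 of 57 heart genes were higher and 1 lower (all genes 3.35% and 0.686%). Leaving out the heart of KI mouse C gave 0 higher and 4 lower of 51 (2.81% and 3.54%). Leaving out the muscle of KI mouse B gave 0 higher and 3 lower of 40 (0.451% and 0.687%), and in brain the counts were 0 to 3 higher and 0 to 2 lower without each array in turn. All of these counts are before adjustment, and with 3 mice against 3 an exact permutation test of 1 gene cannot go below 0.10.

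In liver Kcnj10 and Kcnk5 had the smallest unadjusted p. Kcnj10 stood at -0.71, -0.87 and -1.11 in KI liver and at -1.33, -1.58 and -1.69 in WT liver, a difference of 0.64 (SE 0.16, adjusted p = 0.358). Kcnk5, the gene measured in WT liver alone, stood at -0.23, 0.62 and -0.19 in KI and at 0.69, 1.62 and 1.24 in WT, a difference of -1.12 (SE 0.32, adjusted p = 0.382). In both genes the 3 KI livers lay on 1 side of the 3 WT livers. These genes, and those named below for liver, heart, brain and muscle, were picked by smallest unadjusted p. Groups that do not overlap are therefore no further support for a difference, and the share over all genes was not counted.

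Kcnk6 and Kcnip3 were the next in liver. Kcnk6 lay between -0.19 and 0.16 in KI and between -0.65 and -0.37 in WT, a difference of 0.49 (SE 0.14, adjusted p = 0.385). Kcnip3, a calcium sensor that also acts as a repressor of transcription, stood at -0.39, -0.83 and -0.81 in KI and at -1.47, -1.06 and -1.21 in WT, a difference of 0.57 (SE 0.18, adjusted p = 0.402). Without the liver of KI mouse C, whose array carried muscle markers, the differences were 0.75 for Kcnj10, -0.99 for Kcnk5, 0.48 for Kcnk6 and 0.64 for Kcnip3.

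In heart Kcnk1 and Kcnab1 were the genes higher in KI at an unadjusted p under 0.05. Kcnk1 stood at -2.48, -2.79 and -1.48 in KI heart and at -3.87, -2.94 and -3.28 in WT heart, a difference of 1.12 (SE 0.38, adjusted p = 0.971). On slide 2, which held 2 hearts of each genotype, the difference was 0.77, and on slide 3, with 1 of each, it was 1.80. Kcnab1, a cytoplasmic beta subunit, was 0.48 higher (SE 0.17, 0.34 on slide 2 and 0.77 on slide 3), and neither passed after adjustment. The groups did not overlap in either gene. In Kcnj10, which was 0.69 higher in KI heart, they did, and the difference was 0.50 on slide 2 and 1.06 on slide 3. Kcnj10 was well above background on 3 KI hearts and 2 WT hearts. It was thus tested only through the group in which it was higher, and its slide values are no support. Without the hearts of KI mouse B and WT mouse E, which carried atrial markers, the differences were 1.60 for Kcnk1, 0.56 for Kcnab1 and 0.51 for Kcnj10.

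In brain the only gene with an unadjusted p under 0.05 was Kcnk5, which was tested only through the KI group. With the test limited to genes measured in both genotypes, 0 of 78 potassium channel genes reached that p (all genes 0.34% higher and 0.334% lower in KI). Kcnk5 stood at -5.05, -4.81 and -4.01 in KI brain and at -5.72, -4.91 and -5.62 in WT brain, where 2 of 3 arrays were well above background, a difference of 0.80 (SE 0.33, adjusted p = 1.00). The groups overlapped, the highest value was that of mouse C, whose brain array carried hepatocyte markers, and without that brain the difference was 0.49. The next were Kcnk15 (0.40, SE 0.19), Kcnmb1 (0.41, SE 0.20) and Kcna10 (-0.88, SE 0.51), in which the groups overlapped too. On slide 1, with 1 brain of each genotype, and on slide 2, with 2 of each, the differences were 0.68 and 0.86 for Kcnk5, 0.38 and 0.42 for Kcnk15, 0.69 and 0.27 for Kcnmb1 and -2.35 and -0.15 for Kcna10. Without the brain of KI mouse C the differences were 0.25 for Kcnk15, 0.32 for Kcnmb1 and -0.82 for Kcna10.

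In muscle no gene reached an unadjusted p under 0.05. Kcnj13, an inward rectifier of epithelia, stood at -1.79, -2.63 and -1.92 in KI muscle and -1.43, -1.54 and -1.64 in WT muscle, a difference of -0.57 (SE 0.25, adjusted p = 1.00). Its groups did not overlap, and without the muscle of KI mouse B, which carried mammary markers, the difference was -0.32. Kcnab1 differed by -0.61 (SE 0.38), and by -0.27 without that mouse. Kcnip3 (0.42, SE 0.23) and Kcnq1 (-0.34, SE 0.24) overlapped between the genotypes, and without that mouse their differences were 0.22 and -0.23.

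**Figure D5:**
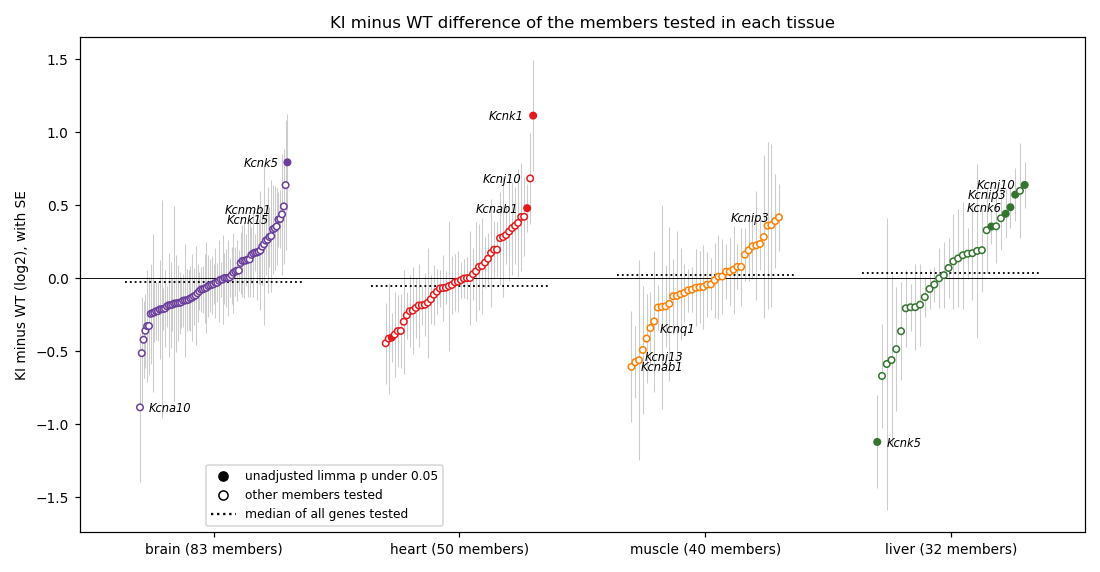
KI minus WT difference in log2 with its standard error for each potassium channel gene tested, sorted within each tissue. Filled points have an unadjusted limma p under 0.05, and dotted lines are medians of all genes tested. The filled points are 1 in brain, 3 in heart, 0 in muscle and 6 in liver, and none passed after adjustment.

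Whether the genotype difference depended on the tissue was tested over all 24 arrays. Of 85 genes tested, 0 passed the adjusted threshold, as did 0% of 17299 genes. At an unadjusted p under 0.05 there were 2, Kcnk13 and Kcnk5 (2.35%, beside 1.86% of all genes). Kcnk13 stood at -1.84, -2.03 and -1.93 in KI liver and at -2.37, -2.19 and -2.31 in WT liver, while KI muscle at -2.55, -2.50 and -2.37 lay at or below most of WT muscle at -2.16, -2.40 and -2.26. Of the 16 partner genes, 13 were tested in brain, 9 in heart, 8 in muscle and 6 in liver, and 0 passed in limma in any tissue. Only Amigo1, 1 of the 6 in liver, had an unadjusted p under 0.05 (all genes 4.25% lower in KI liver). It was 0.48 lower in KI liver (difference -0.48, SE 0.19, adjusted p = 0.421), a value given with all 6 livers only.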

How the data were processed

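RNA of liver, brain, heart and skeletal muscle from 3 Rap1 KI and 3 WT females was labelled with Cy3 and hybridised to 24 arrays. The authors extracted the deposited intensity values with Agilent Feature Extraction 12.0.3.1 per the file headers, which corrected background and left arrays unscaled. They also deposited a score table, found to hold z-scores within each array (largest difference 0.005) and used only as an alternative. Control and outlier spots (121 to 347 an array) were left out, spots of a probe averaged, and log2 of the intensity taken minus the 75th percentile of each array (signal 312.5 to 2519.4). On each array 49.4% to 68.4% of probes were well above background. The number of arrays limits the precision, and p-values measure the spread between mice.

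Probes were named through RefSeq (GRCm38.p6, names only), and of several probes of a gene the brightest on average was used. Tests were two-sided, with lmFit and eBayes of limma 3.58.1 (R 4.3.3). For genotype, the 6 arrays of a tissue were fitted, with genes measured in at least 1 genotype. For tissues, the 12 WT arrays were fitted, with genes measured in both. Where no array of 1 tissue was well above background, a bound ("at least N-fold") was computed, with no test, against the mean over arrays of the lowest level well above background or the dim value, whichever was higher. The scripts were tested on simulated data.

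Each mouse gave all tissues, so arrays of a mouse are paired across tissues. Deviations from group means over 11620 genes correlated by 0.021 on average within a mouse (36 pairs, -0.26 to 0.34) and by -0.0094 between mice. Deviations within a group cancel, so the second value follows largely from the first and is no separate baseline. All liver arrays lay on slide 1 and all muscle arrays on slide 3. Muscle and liver shared no slide, and neither did heart and liver or brain and muscle. For each of these pairs tissue and slide cannot be told apart. Brain and heart arrays of both genotypes lay on 2 slides each, in heart by age. RNA of brain and liver and of heart and muscle was extracted with different kits.

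Named genes were, in each tissue, those past the threshold or else the 4 of smallest unadjusted p between genotypes, the 6 with the largest step to the next tissue, those measured in 1 tissue alone, and lists by role for heart, muscle, neurons, glia, epithelia, immune cells and smooth muscle. Kcns3, the promoter of Kcnh6 and Kcnk13 in the tissue interaction were picked after their values were seen. Some genes that this rule names are not reported here, though the counts hold them. The genes and all lists were chosen with earlier results of these data known. Alternatives covered normalization, background correction, the score table, filters, probes, array weights, all arrays, slide, mouse and leaving out arrays. Leaving out the arrays with markers of another tissue and counting any probe of a gene were added after seeing the data.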

Additional observations from a re-analysis of the deposited data

How the results depend on the processing

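No potassium channel gene and no interaction passed the adjusted threshold between KI and WT in any alternative, and all named genotype differences kept their sign. Counts between tissues rose where a gene measured in 1 of the 2 tissues was enough, which by construction adds genes at background in the other. Then 66 genes were higher in brain and 12 in liver (all genes 37.9% and 42.3%), 17 in heart against 53 in brain (41.7% and 33.7%), and 13 in muscle against 55 in brain (42.8% and 35.3%). Between heart and liver 33 were higher in heart and 11 in liver (39.6% and 34.7%), between heart and muscle 20 and 13 (29.4% and 28.9%), and between muscle and liver 23 and 12 (41.3% and 37.2%). Leaving out 1 mouse gave 8 to 13 genes higher in muscle than liver, with 13 without mouse E. With the mouse as a replicate block, 14 genes were higher in heart than in brain against 15, Kcnj3 having an adjusted p of 0.0502, and no other count moved. The muscle minus brain difference of Kcnc1 was -0.44 as the mean of all probes. The heart minus muscle difference of Kcnj15 was 0.07, -0.41 as the mean of all probes, -0.15 without the heart of WT mouse E, and -0.49 to 1.00 without each mouse in turn, and none of these was called. The cause was not tested. Over all alternatives, 201 counts stayed within 1.5 times and 10 did not, and of the values of single genes 595 kept sign and side of the threshold, 25 fell below it, 15 rose past it and 5 reversed. Probes near background and 3 arrays a group limit all of these.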
